A study of Homo sapiens with 30 samples.

Results

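The genes described here are the keratin and keratin-associated protein (KRTAP) genes of human chromosomes 12, 17 and 21, taken as every protein-coding gene there whose symbol starts with KRT. This gave 138 of 20163 protein-coding genes, 55 keratins and 83 KRTAP genes. They fell into 26 type II keratins and the type I keratin KRT18 on chromosome 12, 28 type I keratins and 34 KRTAP genes on chromosome 17, and 49 KRTAP genes on chromosome 21. Of the last, 16 (the KRTAP10 and KRTAP12 genes) lie inside the gene TSPEAR, and the other 33 lie elsewhere on the chromosome. Each gene was given a window of its span plus 5 kb on each side, and a peak was counted for a gene when it overlapped that window by at least 1 bp.

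H3K27me3 and H3K9me3, a pair of repressive histone marks, were measured by ChIP-seq in HEK293T, an established human embryonic kidney line, 48 hours after delivery of antisense oligonucleotides (ASOs), which lower the amount of a chosen RNA. For H3K27me3 the cells received a negative control ASO (NC), an ASO against LINC00641 or an ASO against SETD5-AS1, and for H3K9me3 they received NC or a mix of ASOs against LINC00662. The comparisons ask whether the marks differed upon depletion of these long noncoding RNAs, here called ΔLINC00641, ΔSETD5-AS1 and ΔLINC00662. Each of the 5 ChIP groups and its input held 3 replicates, 30 samples in all, which the authors merged before calling peaks, so that each condition is 1 peak list with no spread between replicates and no test between conditions was possible. No RNA level was analysed here, so neither the extent of depletion nor the identity of the cell line could be checked from these values.

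Keratins are the intermediate filament proteins of epithelia and hair, and a filament pairs a type I with a type II chain. KRT8 and KRT18 are the pair of simple epithelia, other pairs mark stratified epithelia, and a further set builds the inner root sheath and shaft of hair. KRTAP genes are small, mostly single-exon genes in tandem clusters whose products form the cysteine-rich matrix around hair keratins. H3K27me3, laid down by Polycomb repressive complex 2, and H3K9me3, a mark of heterochromatin, both accompany silenced genes.

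The sequences under strong NC peaks of the KRTAP clusters show how unlike the marked places were. Peaks are called strongest here and below by their −log10 q, not by their fold enrichment. Each stretch is printed 5′ to 3′ on the plus strand of hg19 and centred on the peak's summit, with CG dinucleotides, the site of DNA methylation, in capitals.
KRTAP4-2, H3K27me3, chr17:39332291-39332491: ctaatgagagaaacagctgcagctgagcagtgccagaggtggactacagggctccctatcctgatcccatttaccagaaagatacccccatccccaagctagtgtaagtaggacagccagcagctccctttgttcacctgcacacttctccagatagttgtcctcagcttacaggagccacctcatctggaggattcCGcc
KRTAP9-9, H3K27me3, chr17:39411707-39411907: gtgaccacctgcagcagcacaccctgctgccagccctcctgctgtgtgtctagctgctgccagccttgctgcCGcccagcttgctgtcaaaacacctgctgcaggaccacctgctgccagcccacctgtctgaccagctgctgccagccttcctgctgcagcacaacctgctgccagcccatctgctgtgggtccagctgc
KRTAP4-6, H3K9me3, chr17:39296177-39296377: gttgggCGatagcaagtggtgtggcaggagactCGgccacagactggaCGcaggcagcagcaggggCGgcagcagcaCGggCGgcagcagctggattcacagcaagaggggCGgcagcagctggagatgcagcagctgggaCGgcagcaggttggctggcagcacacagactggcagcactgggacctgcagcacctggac
KRTAP10-11, H3K9me3, chr21:46063871-46064071: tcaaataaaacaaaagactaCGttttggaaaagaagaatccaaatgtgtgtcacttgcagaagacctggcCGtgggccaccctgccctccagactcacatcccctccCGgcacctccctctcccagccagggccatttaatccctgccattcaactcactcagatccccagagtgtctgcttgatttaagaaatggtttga
KRTAP19-2, H3K9me3, chr21:31858903-31859103: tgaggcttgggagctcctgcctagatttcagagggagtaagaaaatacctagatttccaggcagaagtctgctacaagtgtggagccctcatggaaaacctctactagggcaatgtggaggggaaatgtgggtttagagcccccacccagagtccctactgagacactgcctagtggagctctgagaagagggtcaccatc
The KRTAP4-2 stretch lay 1307 bases downstream of its gene and held 1 CG. The KRTAP9-9 and KRTAP4-6 stretches lay in coding parts, and held 64.7% and 66.7% G and C. The KRTAP4-6 stretch held 8 CG dinucleotides, the KRTAP9-9 stretch 1. The KRTAP10-11 stretch lay 2360 bases upstream of its gene and held 3 CG dinucleotides, and the KRTAP19-2 stretch lay 359 bases downstream and held 0. The KRTAP9-9 stretch was added after the values were seen, as the NC H3K27me3 peak with the highest −log10 q of its subfamily (9.27).

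In NC cells, 32 of the 138 genes had an H3K27me3 peak in their window, against 17.1% of all protein-coding genes. The count was 36 in ΔLINC00641 cells and 36 in ΔSETD5-AS1 cells, against 17.3% of all genes in each. For H3K9me3 it was 39 in NC cells and 28 in ΔLINC00662 cells, against 38.6% and 33.0% of all genes. As shares, H3K27me3 reached 23.2% of the members in NC cells (95% Wilson interval 16.9 to 30.9) and H3K9me3 28.3% (21.4 to 36.3). The 138 windows merge into 69 stretches and neighbours can share a peak, so intervals that take genes as independent are too narrow. Windows of long genes catch more peaks, and among protein-coding genes with spans below 20 kb the NC shares were 16% for H3K27me3 and 17.4% for H3K9me3. Among the 2458 protein-coding genes of chromosomes 12, 17 and 21 they were 11% and 30.6%. Of the members, 65 had no peak in any of the 5 lists.

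The marks were unevenly spread over the clusters. H3K27me3 peaks covered 10.5% of the windows of the chromosome 17 KRTAP genes in NC cells, 1.05% of the type II keratin windows, 0.701% of the type I keratin windows, and 0.816% of the KRTAP10 and KRTAP12 windows. No NC H3K27me3 peak touched the 33 KRTAP genes of chromosome 21 outside TSPEAR. H3K9me3 had another order, with 12.7% of the KRTAP10 and KRTAP12 windows covered, 2.80% for the chromosome 17 KRTAP genes, 1.78% for type I keratins, 1.76% for the remaining chromosome 21 KRTAP genes and 0.434% for type II keratins. Over all protein-coding genes the covered shares were 2.02% for H3K27me3 and 1.55% for H3K9me3. Each mark thus had its highest share in a different KRTAP cluster, and the keratin clusters stayed below the all-gene share of H3K27me3 in all 3 lists.

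**Figure D1:**
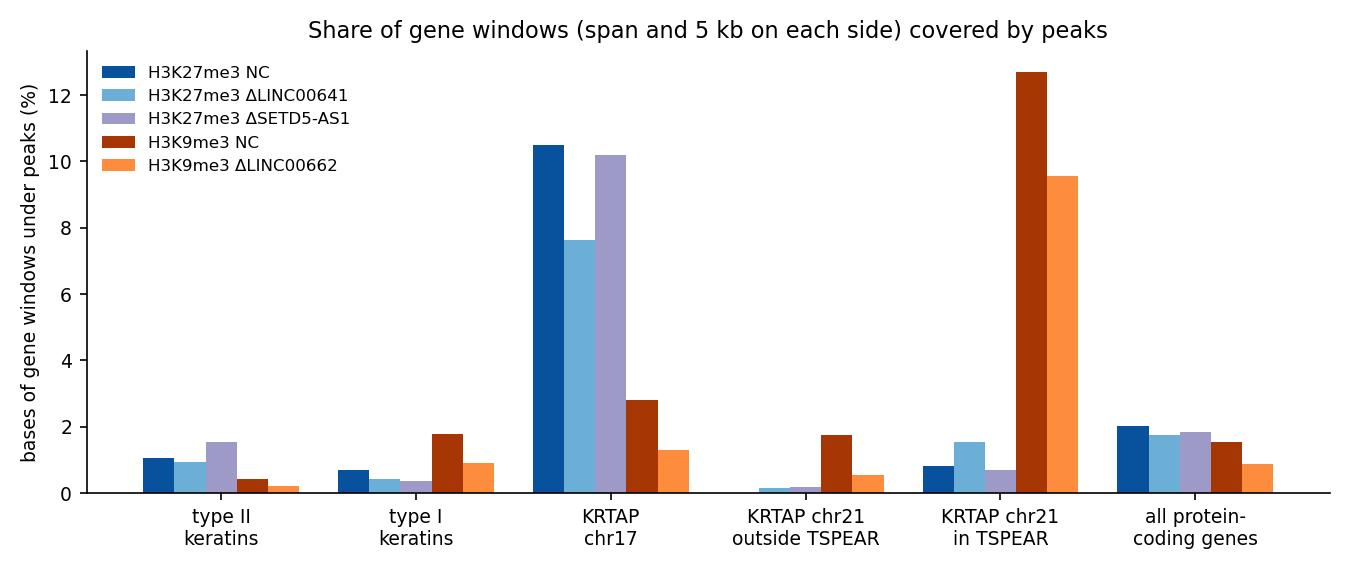
Share of the bases of gene windows (span and 5 kb on each side, vertical axis in percent, from 0) that lie under peaks, by gene cluster, for the 5 pooled peak lists. Each bar is 1 list without replicates. The blue and violet H3K27me3 bars are tallest for the chromosome 17 KRTAP genes (10.5% in NC cells) and the brown and orange H3K9me3 bars for the KRTAP genes inside TSPEAR (12.7% in NC cells).

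KRT8 and KRT18 carried no peak of either mark in any list. KRT8 (ENSG00000170421, chr12:53290971-53343738, minus strand) has a long annotated span of 52768 bp that overlaps KRT18 (ENSG00000111057, chr12:53342655-53346690, plus strand), so their windows share bases. The nearest NC H3K27me3 peak to KRT8 was 137 kb away, and the nearest NC H3K9me3 peak 135 kb away. In the knockdown lists the nearest peak to KRT8 lay 140 kb (ΔLINC00641), 87.7 kb (ΔSETD5-AS1) and 137 kb (ΔLINC00662) away. Both genes thus sat in a peak-free stretch in every condition. This was not particular to them. With KRT7, KRT19, KRT20 and KRT23 they make up the 6 keratins of simple epithelia. Together these 6 held 1 H3K27me3 peak in NC cells, at KRT23, and no H3K9me3 peak in either list. Of the 26 type II keratins, 13 had no peak in any list, KRT8 among them, as had 15 of the 28 type I keratins of chromosome 17.

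Among type II keratins, the largest H3K27me3 share was at KRT6A, an inducible keratin of hair follicles and of wounded epidermis. Its window was covered to 12.8% in NC cells, 13.7% upon depletion of LINC00641 and 21.7% upon depletion of SETD5-AS1. The next were KRT75, a companion layer keratin, at 5.97%, 1.98% and 5.75%, and KRT1, the chain of differentiating epidermis, at 3.79% in NC cells and 0 in both knockdowns. KRT72, of the inner root sheath, followed at 3.72%, 1.6% and 2.89%. KRT6A, KRT6B, KRT72, KRT75 and KRT2 had H3K27me3 peaks in all 3 lists. KRT6A, KRT6B and KRT6C are near-identical copies, and their peaks lay partly on shared sequence. Of the bases of the 3 NC KRT6A peaks, 29.7%, 81.7% and 22.1% belonged to 50-base words that occur more than once in the member windows, and 47.3% of the KRT6B peak did. The strongest NC peak of the cluster was at KRT1, with 23 fragments at its summit (95% Poisson interval 14.6 to 34.5), a fold enrichment over input of 4.49 and a −log10 q of 7.11.

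H3K9me3 on type II keratins was limited to 3 peaks in NC cells, at KRT6A (9.15% of the window), KRT5 (4.0%) and KRT6C (2.06%). None of these was found in ΔLINC00662 cells, where the only peaks were at KRT2 (3.32%) and KRT72 (2.18%). Leaving out repeated words took the NC share of the cluster from 0.434% to 0.226%.

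Type I keratins held 5 H3K27me3 peaks in NC cells, at KRT38 (6.39% of the window), KRT9 (4.14%), KRT33A (3.11%), KRT23 (2.33%) and KRT28 (1.99%). KRT33A, a hair shaft keratin, was the only type I keratin with H3K27me3 in all 3 lists. The strongest of the NC peaks lay on coding sequence of KRT28, an inner root sheath keratin, with 27 fragments at the summit and a −log10 q of 5.85. H3K9me3 was more frequent, with 14 NC peaks at 9 genes. KRT26, an inner root sheath keratin, had 5 of them in its window and 19.9% of its window covered, and 2 peaks and 11.1% in ΔLINC00662 cells. KRT16 (6.85% in NC and 4.21% in ΔLINC00662 cells), KRT38 (6.20% and 3.88%) and KRT33A (6.09% and 2.07%) followed. The strongest by −log10 q (11.4) was a peak 3256 bases downstream of KRT16 with 42 fragments. Its fold enrichment of 4.11 was below that of peaks at KRT25 (5.10) and KRT26 (4.83). No H3K9me3 peak of either list reached a coding base of a type I keratin, and none reached a gene span, so all of this signal lay in the flanks. None of the 5 NC H3K27me3 peaks of the cluster overlapped a ΔSETD5-AS1 peak, and 1 overlapped a ΔLINC00641 peak.

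By the epithelium they serve, the 8 inner root sheath keratins had the highest H3K9me3 share of the keratin groups (2.88% of windows in NC and 1.66% in ΔLINC00662 cells), and the 23 keratins of stratified epithelia the highest H3K27me3 share (1.41%, 1.16% and 1.81% in NC, ΔLINC00641 and ΔSETD5-AS1 cells). The NC H3K9me3 of the inner root sheath group all lay in the flanks of the neighbouring genes KRT25, KRT26 and KRT27. The rest of that group had no NC H3K9me3 peak. The 17 hair shaft keratins had 0.460%, 0.694% and 0.480% under H3K27me3 and 0.807% and 0.472% under H3K9me3. Hair keratins thus did not share the H3K27me3 of the KRTAP genes that lie between them on chromosome 17.

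Within the chromosome 17 KRTAP cluster, H3K27me3 was concentrated on 1 subfamily. The 8 KRTAP9 genes, which encode ultrahigh-sulfur hair matrix proteins, had 31 peaks and 34.4% of their windows covered in NC cells, 25 peaks and 26.5% in ΔLINC00641 cells, and 33 peaks and 35.6% in ΔSETD5-AS1 cells. The 12 KRTAP4 genes next to them had 10, 7 and 6 peaks and 5.18%, 3.63% and 2.86%. The 4 KRTAP1 and the 4 KRTAP2 genes, in the same tandem array, had none in any list. From 5 kb before KRTAP4-1 to 5 kb past KRTAP9-7 (chr17:39335352-39437459), 25% of 102 kb lay under H3K27me3 peaks in NC cells, 18.5% in ΔLINC00641 cells and 25.2% in ΔSETD5-AS1 cells. The NC share in the 100 kb before and after the whole KRTAP cluster was 1.38% and 0.458%.

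**Figure D2:**
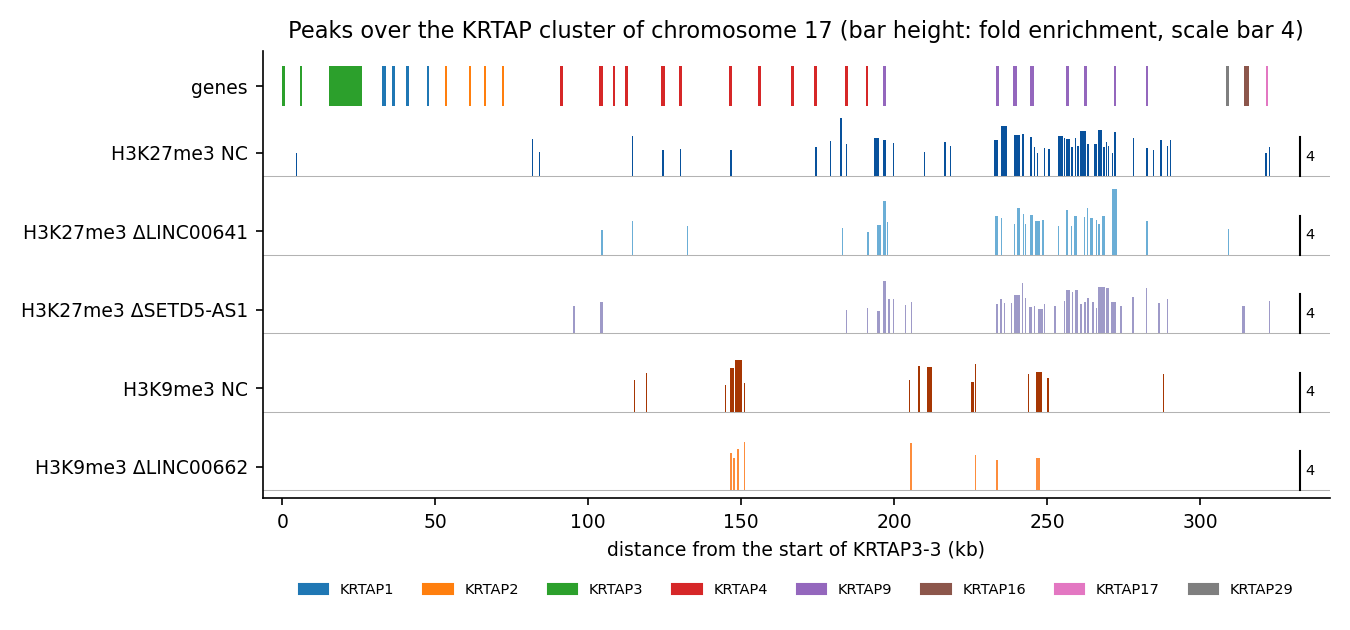
Peaks of the 5 lists over the KRTAP genes of chromosome 17, by distance in kb from the start of KRTAP3-3. The top row shows the genes coloured by subfamily, and each bar below is a peak whose height is its fold enrichment over input (scale bar of 4 at the right). H3K27me3 peaks crowd over the KRTAP9 genes in all 3 lists, the KRTAP1 and KRTAP2 genes are free of peaks, and H3K9me3 peaks stand at KRTAP4-6, at KRTAP9-8 and in spacers.

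All 8 KRTAP9 genes had an H3K27me3 peak within 1 kb of an annotated start in all 3 lists, and the share of each window covered was as follows. KRTAP9-9 (ENSG00000198083, chr17:39411636-39412616) had 63.5% in NC cells, 38.6% upon depletion of LINC00641 and 54.0% upon depletion of SETD5-AS1, the highest NC value of all 138 genes. KRTAP9-4 had 56.9%, 24.0% and 38.6%. KRTAP9-3 had 45.0%, 30.4% and 49.9%. In these genes the ΔLINC00641 value was the lowest of the 3. KRTAP9-8 went the other way, with 36.3%, 48.0% and 53.1%. KRTAP9-6 had 31.8%, 29.1% and 46.0%, and KRTAP9-2 had 28.9%, 15.1% and 21.4%. KRTAP9-1 differed least, with 27.6%, 26.0% and 28.1%. KRTAP9-7, last in the array, had the lowest values of the subfamily at 14.5%, 6.14% and 17.5%. The ΔLINC00641 share was therefore the lowest of the 3 lists in 7 of the 8 genes, with KRTAP9-8 as the exception, and the mark was present at each gene in each list. The 8 windows overlap and merge into 3 stretches, so neighbouring genes share peaks and are not independent. The whole ΔLINC00641 list also covered fewer bases than the NC list, 0.824 times as many.

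The KRTAP9 coding sequence was almost wholly covered, while most of the 23.9 kb under NC H3K27me3 peaks in these windows lay outside it. Of the 4.18 kb of KRTAP9 coding sequence, 98.4% lay under H3K27me3 peaks in NC cells, 95% in ΔLINC00641 cells and 97.2% in ΔSETD5-AS1 cells, against 30.3%, 22.1% and 31.7% of the rest of their windows. Over all members 6.84% of coding bases were covered in NC cells, and over all protein-coding genes 2.25%. The lowest coding share of a single KRTAP9 gene in any of the 3 lists was 78.3%, at KRTAP9-7 in ΔLINC00641 cells. In the bin 250 to 500 bases past the annotated start, coverage averaged over the 8 genes was 100% in the NC list, 98.7% in the ΔLINC00641 list and 100% in the ΔSETD5-AS1 list. The 12 KRTAP4 genes had a lower rise at the same distance, to 37.1% in NC cells. H3K9me3 did not have this shape, since no NC H3K9me3 peak touched a KRTAP9 coding base and 1 gene, KRTAP9-2, had one in ΔLINC00662 cells.

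**Figure D3:**
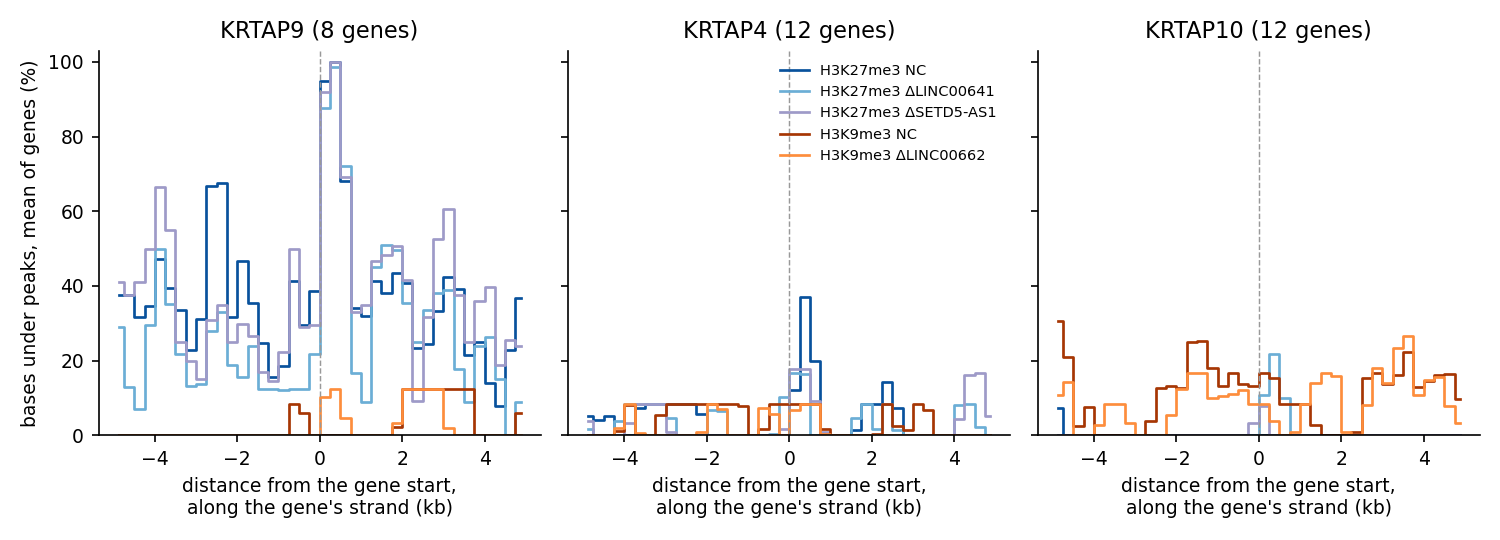
Share of bases under peaks by distance from the annotated gene start along the gene's strand (horizontal axis in kb, bins of 250 bases), averaged over the 8 KRTAP9, 12 KRTAP4 and 12 KRTAP10 genes, for the 5 lists. The 3 H3K27me3 lines reach 98.7% to 100% just past the start of the KRTAP9 genes, and the H3K9me3 lines there stay at or below 12.5%.

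Properties of the sequence moved with this pattern. KRTAP9 coding bases held 62.3% G and C against 38.9% in the rest of the windows, and 73.0% of them belonged to repeated 50-base words, where reads can be assigned to the wrong copy, against 15.4% of the rest. Of the 1.13 kb of KRTAP9 coding sequence with no repeated word, 100% lay under NC H3K27me3 peaks. No peak of that list was shorter than 266 bp, so these bases can be covered from repeated sequence beside them. The local input at the KRTAP9 peaks had a median of 1.17 times the genome-wide level in NC cells and reached 2.21 times at most. The NC H3K9me3 list lacked peaks over the same coding sequence, and the ΔLINC00662 list covered 11.5% of it, all at KRTAP9-2. The KRTAP4 coding sequence had a like composition (64.9% G and C, 60.9% in repeated words) and was covered to 29.5%, and the KRTAP10 coding sequence (66.2% and 58.5%) was not covered by H3K27me3 in NC cells, and to 12.1% in ΔLINC00641 and 1.82% in ΔSETD5-AS1 cells. The part of base composition and of read assignment in the result was not tested.

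The KRTAP promoters also had features in common. Among RefSeq promoters of 300 bases (GRCh38.p14), 112 of the 138 genes were matched. The letters TATAAA stood on either strand in 84 of their 116 promoters (72.4%), against 11.5% of all 35116 promoters. The share was 87.9% for the chromosome 17 KRTAP genes, 73.3% for those inside TSPEAR, 76.7% for the other chromosome 21 KRTAP genes and 65.2% for type I keratins, while 6 of 15 type II keratin promoters held the letters. The members' promoters had a median of 2 CG dinucleotides against 14 over all promoters, and the KRTAP9 promoters a median of 1. As an example of a marked gene that has TATAAA and few CG, the 250 bases before the RefSeq start of KRTAP9-3 (hg19 chr17:39388451-39388700, plus strand) are printed with TATAAA in capitals.
KRTAP9-3: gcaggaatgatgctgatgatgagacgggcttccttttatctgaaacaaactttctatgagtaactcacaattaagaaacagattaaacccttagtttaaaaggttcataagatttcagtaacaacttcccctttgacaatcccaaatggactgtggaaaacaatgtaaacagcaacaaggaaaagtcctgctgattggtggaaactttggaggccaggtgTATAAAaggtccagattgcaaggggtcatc
The motif began 30 bases before the start. No H3K27me3 peak overlapped these 250 bases in any list, although 100% (NC), 92.0% (ΔLINC00641) and 100% (ΔSETD5-AS1) of the coding bases that follow were covered. This was not so for each gene, since 1 NC H3K27me3 peak overlapped the matching 250 bases of KRTAP9-9, and over the 8 KRTAP9 genes 38.6% of the 250 bases before the annotated start lay under NC peaks. Marked and unmarked members both held TATAAA, so the letters did not separate them.

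H3K9me3 in the same cluster was found at 6 of the 34 genes in NC cells, and covered 6.85% of the spacers between the gene windows against 2.80% of the windows. KRTAP4-6 (chr17:39295685-39296796) had 4 peaks in each list, with 37.1% of its window covered in NC and 17.2% in ΔLINC00662 cells, and 100% of its coding sequence in both. Its peak over the coding sequence was the strongest H3K9me3 peak of the cluster by −log10 q in both lists, though not by fold enrichment, with 50 fragments (37.1 to 65.9) and a fold enrichment of 4.47 in NC cells, and 49 fragments (36.3 to 64.8) and a fold enrichment of 3.85 in ΔLINC00662 cells. The local input there was 2.43 and 3.42 times the genome-wide level. KRTAP9-8 was next with 24.5% and 10.0%, mainly from a peak downstream of the gene with 47 and 33 fragments at the summits. KRTAP9-8 thus carried both marks, as did KRTAP4-6 in NC cells, where H3K27me3 covered 4.21% of its window. Over all members 2471 bases lay under both marks in NC cells, which is 6.36% of the H3K27me3 bases and 5.95% of the H3K9me3 bases. The share of H3K27me3 bases ran from 0 at type I keratins to 57.2% (698 bp) at the KRTAP10 and KRTAP12 genes. In NC cells 11 members had peaks of both marks in their windows, 5 of them in the chromosome 17 KRTAP cluster. At KRTAP4-9 and KRTAP4-11 the NC H3K9me3 shares were 4.50% and 3.18%, and neither gene had a peak in ΔLINC00662 cells.

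On chromosome 21, the KRTAP10 and KRTAP12 genes, hair cuticle genes nested in introns of TSPEAR, carried 28 H3K9me3 peaks in NC and 27 in ΔLINC00662 cells. A peak was present at 13 of the 16 genes in NC cells and at the same 13 in ΔLINC00662 cells, the exceptions being KRTAP10-3, KRTAP10-12 and KRTAP12-1. H3K9me3 covered 12.7% of the windows in NC and 9.57% in ΔLINC00662 cells. The spacers between the windows were covered to 12.9% and 5.10%, and the 100 kb on the lower and upper sides to 1.92% and 0% in NC cells. H3K9me3 peaks thus lay in spacers as well as in gene windows, but not along the whole array. No NC peak lay between 9.069 and 32.362 kb from the start of KRTAP10-1. None lay from 137.33 kb to the end of the array.

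**Figure D4:**
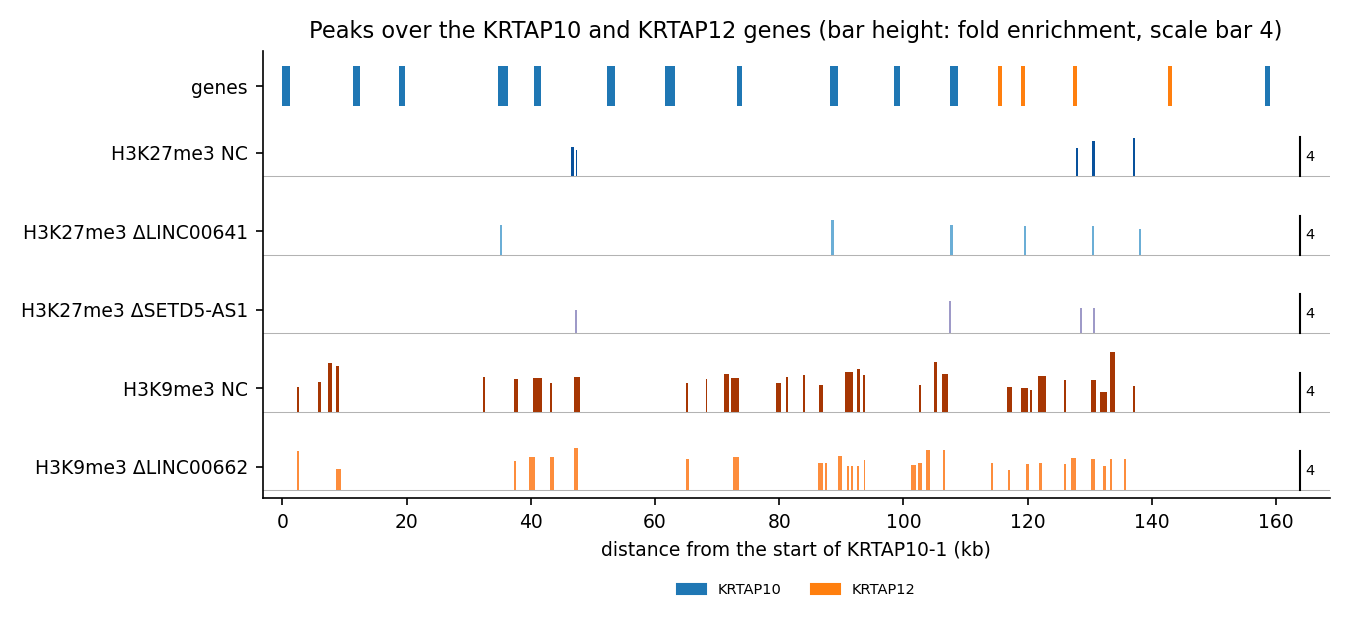
Peaks of the 5 lists over the KRTAP10 and KRTAP12 genes inside TSPEAR, by distance in kb from the start of KRTAP10-1. Bars are peaks with their fold enrichment over input as height (scale bar of 4 at the right). H3K9me3 peaks, of which 28 in the NC and 27 in the ΔLINC00662 list lie in gene windows, stand between and beside the genes, and H3K27me3 peaks are few in each of the 3 lists (4, 6 and 4 in the gene windows).

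KRTAP12-3 (chr21:46077849-46078258) had the largest NC H3K9me3 share of these genes, 33.7% in NC and 15.7% in ΔLINC00662 cells. KRTAP12-2 had 27.5% and 22.7%, KRTAP10-9 had 26.8% and 27.1%, and KRTAP10-5 had 22.7% and 17.5%. The values of KRTAP10-9 were nearly alike. KRTAP10-10 was the gene with the largest rise, from 6.89% to 22.1%, and KRTAP10-8 fell from 22.0% to 8.65% in covered share. Of the 28 NC H3K9me3 summits 1 lay in a coding part, against 13 of 42 for NC H3K27me3 at the chromosome 17 KRTAP genes. In contrast to the H3K27me3 at KRTAP9, 12.6% of the noncoding and 13.0% of the coding bases were covered here. The coverage averaged over the KRTAP10 genes was highest in a bin 5 kb upstream of the start (30.7%). The strongest NC peak lay upstream of KRTAP10-11, with 40 fragments at the summit (28.6 to 54.5), a fold enrichment of 5.07 and a −log10 q of 14.1. In ΔLINC00662 cells the strongest lay 5141 bases downstream of KRTAP10-6, with 30 fragments (20.2 to 42.8). H3K27me3 in this cluster came to 4, 6 and 4 peaks, of which KRTAP12-2 had 2 in NC cells (7.20% of the window).

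**Figure D5:**
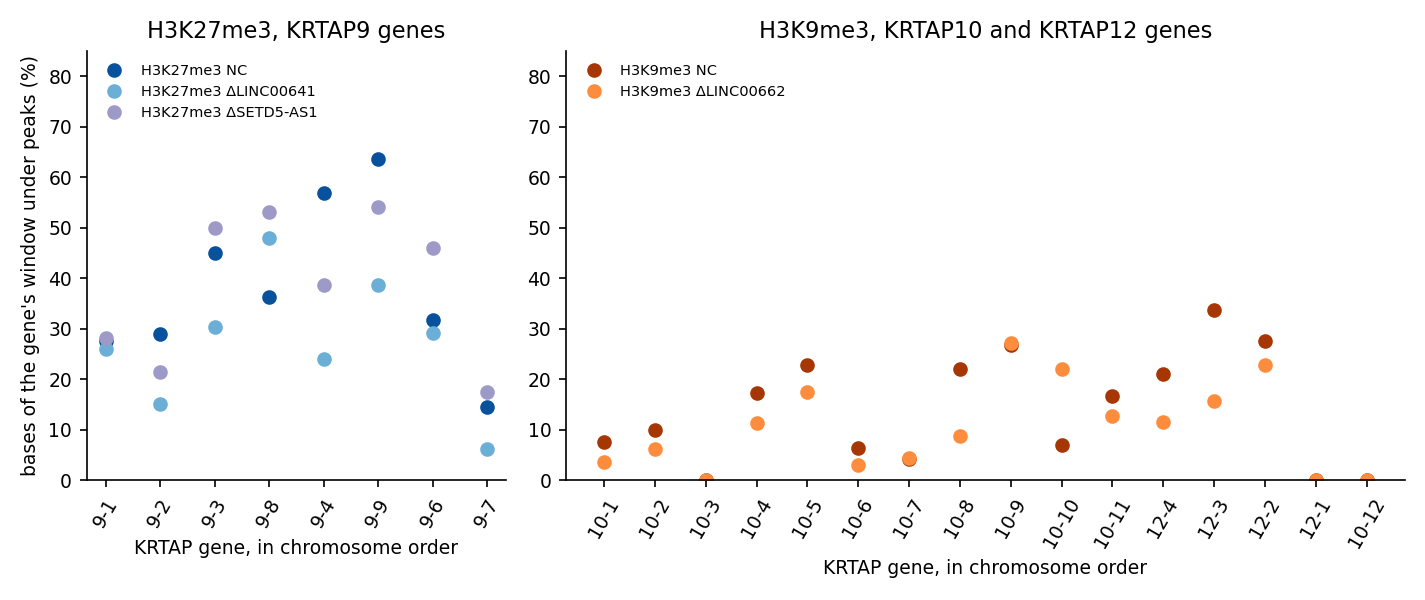
Share of each gene's window under peaks (vertical axis, percent) for the 8 KRTAP9 genes under H3K27me3 (left) and the 16 KRTAP10 and KRTAP12 genes under H3K9me3 (right). Each point is 1 gene in 1 pooled list, with no replicates, and overlapping windows of neighbouring genes share peaks. The ΔLINC00641 point is the lowest of the 3 in 7 of the 8 KRTAP9 genes, with KRTAP9-8 lowest in NC cells (36.3%), and KRTAP10-10 is higher in ΔLINC00662 cells (22.1%).

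The other 33 KRTAP genes of chromosome 21 were mostly bare. Of them 24 had no peak in any list, among them all genes of the KRTAP6, KRTAP11, KRTAP15, KRTAP20, KRTAP22, KRTAP24, KRTAP25, KRTAP26 and KRTAP27 subfamilies. H3K9me3 marked KRTAP19-2 (23.6% of the window in NC and 12.2% in ΔLINC00662 cells) and its neighbour KRTAP19-3 (14.1% and 10.5%), which share peaks. KRTAP23-1 (7.64%) and KRTAP7-1 (6.13%) came next in NC cells, with 0 and 2.75% in ΔLINC00662 cells. The peak at KRTAP19-2 was the strongest, with 42 fragments at the summit in NC cells. H3K27me3 appeared in the knockdown lists only, as 1 peak over KRTAP13-4 that also reached the window of KRTAP13-3. It covered 85% of the KRTAP13-4 coding sequence in ΔLINC00641 cells, with 21 fragments at the summit (13.0 to 32.1), and 90.2% in ΔSETD5-AS1 cells, with 22 fragments (13.8 to 33.3). Both knockdowns were read against the same NC list.

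Upon depletion of LINC00641, the bases of the member windows under H3K27me3 were 0.791 times those in NC cells, 30736 against 38837 bp. Genome-wide the ratio of the lists was 0.824. By cluster it was 0.909 for type II keratins, 0.596 for type I keratins, 0.727 for the chromosome 17 KRTAP genes and 1.88 for the KRTAP10 and KRTAP12 genes, the last from 1221 and 2293 bp. Of 60 NC peaks, 30 overlapped a knockdown peak (95% Wilson interval of the share 37.7% to 62.3%), against 53.2% of all NC peaks. At KRTAP9 it was 22 of 31 (71.0%, 53.4 to 83.9). Counted by gene, 12 of the 32 members with an NC peak had none in ΔLINC00641 cells, against 14.1% of all genes with an NC peak, and 16 of the 36 with a knockdown peak had none in NC cells, against 15.3%. By gene, the share that changed state was higher among the members than among all genes in both directions, but this difference was not tested. A gene changed state only when all its peaks were lost or gained, and the all-gene shares were not matched for span or peaks per gene. By peak, the interval of the members' retained share held the 53.2% of all NC peaks. The same limit applies to the gene counts of the other comparisons below. The ratios of covered bases were close to each other in the full lists. Among peaks with −log10 q no lower than 5 the members had a ratio of 0.465, and that of the whole lists was not computed. With equal numbers of the strongest peaks from each list the members had 0.888. The genes with the largest falls in covered share were KRTAP9-4 (by 32.9 percentage points), KRTAP9-9, KRTAP9-3 and KRTAP9-2, and those with the largest rises were KRTAP9-8, KRTAP4-16 (0 to 5.28%), KRTAP4-8 (0 to 5.06%) and KRTAP10-9 (0 to 4.69%).

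Upon depletion of SETD5-AS1 the members had a covered ratio of 1.02 (39620 against 38837 bp), where the lists as a whole had 0.898. The direction was not stable, since peaks with −log10 q no lower than 5 gave 0.762 and those of lower G and C content 0.903. The ratio was 1.47 for type II keratins, 0.532 for type I keratins and 0.970 for the chromosome 17 KRTAP genes. Of the 60 NC peaks, 36 were retained (interval 47.4% to 71.4%), against 56.3% genome-wide, and at KRTAP9 26 of 31 (83.9%, 67.4 to 92.9). By gene, 10 of 32 members lost their peak, against 15.2% of all genes with an NC peak, and 14 of 36 gained one, against 16.1%. KRTAP9-4, KRTAP4-2 (13.7% to 3.32%), KRTAP9-9 and KRTAP9-2 fell most, and KRTAP9-8, KRTAP9-6, KRT6A and KRTAP16-1 (0 to 7.43%) rose most in covered share. The LINC00641 and SETD5-AS1 comparisons share the same NC list, so that falls or rises seen in both are not independent.

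Upon depletion of LINC00662 the bases under H3K9me3 at the members were 0.589 times those in NC cells (24476 against 41563 bp), where the lists as a whole had 0.599. With equal numbers of the strongest peaks from each list the members had 0.706. The genome-wide input level was 4.29 fragments in the NC and 3.50 in the ΔLINC00662 list, and the part of depth was not tested. All 5 clusters with peaks went down: the ratio was 0.757 for the KRTAP10 and KRTAP12 genes, 0.510 for type I keratins, 0.474 for type II keratins, 0.463 for the chromosome 17 KRTAP genes and 0.318 for the other chromosome 21 KRTAP genes. Of 62 NC peaks, 33 were retained (53.2%, 41.0 to 65.1), against 37.9% of all NC peaks, and 20 of 28 (71.4%, 52.9 to 84.7) at the KRTAP10 and KRTAP12 genes. By gene, 15 of 39 members with an NC peak had none in ΔLINC00662 cells, against 24.0% of all genes with an NC peak, and 4 of 28 were gained, against 11.1%. The largest falls in covered share were at KRTAP4-6, KRTAP12-3, KRTAP9-8 and KRTAP10-8, and the largest rises at KRTAP10-10, KRTAP9-2 (0 to 4.95%), KRT2 (0 to 3.32%) and KRT33B (0 to 3.07%).

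Where a peak was present in both lists, its height moved in either direction with a median near no change. The median log2 ratio of fold enrichment, knockdown over NC, at peaks that paired 1 to 1 was −0.05 (SD 0.44, 21 pairs) for ΔLINC00641, −0.14 (SD 0.36, 23 pairs) for ΔSETD5-AS1 and −0.01 (SD 0.42, 28 pairs) for ΔLINC00662. Over all pairs of the lists the medians were 0.02, −0.07 and 0.03. NC peaks with no counterpart in the knockdown list do not enter these medians. At the strongest NC peak of the chromosome 17 KRTAP cluster, downstream of KRTAP4-2, 28 fragments stood at the NC summit. The paired ΔLINC00641 peak had 19 fragments at another position, since it did not reach the NC summit. The fold enrichment was 5.98 against 2.70, and no ΔSETD5-AS1 peak overlapped the NC peak. The NC peak was picked for its strength in that list, so a lower paired value cannot be read as a change. At KRTAP9-1 the fold enrichment went from 3.74 in NC cells to 5.48 in ΔLINC00641 and 5.32 in ΔSETD5-AS1 cells, with 26, 29 and 33 fragments. At these depths the Poisson intervals of such counts overlap, and the median summit held 18 to 24 fragments over the members of each list.

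Base composition moved with the changes in coverage. When the member peaks of the NC and ΔLINC00662 lists were split at their median G and C content of 50.9%, the covered ratio was 0.986 in the upper group and 0.341 in the lower. Over all peaks of chromosomes 12, 17 and 21, split at the same value, it was 1.16 and 0.464. For ΔLINC00641, split at 48.9%, the members had 1.00 and 0.640 and the chromosomes 1.12 and 0.653. For ΔSETD5-AS1, split at 48.4%, they had 1.18 and 0.903 against 1.03 and 0.756. In each comparison the knockdown list thus had relatively fewer bases under peaks of low G and C content at the members and across their chromosomes alike, and depletion and the composition of the libraries cannot be told apart here.

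The genes that work with keratins were read in the same way. Of 41 genes of intermediate filaments, cell junctions and the cornified envelope, 13 had an H3K27me3 peak in NC cells, 14 in ΔLINC00641 and 15 in ΔSETD5-AS1 cells. These shares of 31.7%, 34.1% and 36.6% compare with 17.1%, 17.3% and 17.3% of all genes. Apart from DSG1 and PPL, the genes with an NC peak lie in the epidermal differentiation complex. The highest NC shares of windows were at IVL (57.4%), LCE1A (56.0%), TCHH (51.6%) and LCE5A (47.1%), which encode envelope proteins and trichohyalin and lie in the epidermal differentiation complex of chromosome 1. H3K9me3 was at 19 of these genes in NC and 16 in ΔLINC00662 cells (46.3% and 39.0%), against 38.6% and 33.0% of all genes, with the highest NC share at HRNR, a filaggrin-like protein of the epidermis (19.2% in NC, 19.0% in ΔLINC00662 cells). Of 16 regulators of keratin genes and hair, FOXN1 alone had H3K27me3 in NC cells (1.43% of its window), and 6 (37.5%) had H3K9me3. In the whole epidermal differentiation complex 46 of 63 genes had H3K27me3 in NC cells and 22.5% of windows were covered, against 10.5% for the chromosome 17 KRTAP genes and 34.4% for the KRTAP9 genes among them. Of the 11 KRTAP5 genes on chromosome 11, a hair matrix family outside the clusters above, 1 had H3K27me3 (1.19% of windows) and 2 had H3K9me3 (1.72%) in NC cells.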

How the data were processed

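Peak lists of 5 ChIP groups of HEK293T cells were used. The paper's methods name Cutadapt 3.3 for trimming, Bowtie2 2.4.2 for alignment (hg19), removal of duplicates, and MACS2 2.2.7.1 for peaks, which the authors ran on ChIP and input libraries pooled over 3 replicates. How reads with several matches were treated beyond this is not given in the sources used here. The authors deposited, for each peak, a fold enrichment ratio and the −log10 p-value and −log10 q-value.

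Here, genes came from GENCODE 44 lifted to GRCh37, whose chromosome lengths hold all peaks. Fragments at each summit and the local input were solved from the fold enrichment and −log10 p-value, and 100% of values came out whole within 0.1. The genome-wide level was 3.85, 3.78 and 4.43 fragments in the H3K27me3 NC, ΔLINC00641 and ΔSETD5-AS1 lists. For H3K9me3 it was 4.29 in the NC and 3.50 in the ΔLINC00662 list. The part of these differences in the covered ratios was not tested. Wilson and Poisson 95% intervals cover counting error only, and take genes, peaks or fragments as independent. Covered bases, overlaps of 1 bp and 1-to-1 pairs were computed with Python 3 code (numpy, pandas, scipy) tested on simulated data. Members with a peak, genes with the 4 largest covered shares or changes and the strongest peaks were named by fixed rules. Further genes and the KRTAP9 coding analysis were chosen after values were seen, and members and lists were chosen with earlier results of these data known. Alternatives to the window, threshold, overlap, number of peaks, merging, input, composition and repeats were run.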

Additional observations from a re-analysis of the deposited data

How the results depend on the processing

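No paired analysis was possible because peaks had been called on libraries merged over replicates, and for the same reason no replicate could be left out. Of 109 alternative values, 75 stayed within the bounds set for a like value, 32 moved and 2 changed direction. The bounds were 1.5 times for counts, shares and ratios, the Wilson interval for retained peaks, and a standard error for median log2 ratios. A median smaller than that error that changed sign was counted as moved, as for ΔLINC00641 (−0.05 to 0.11). The covered ratio of ΔSETD5-AS1 over NC, 1.02, became 0.762 with peaks of −log10 q of at least 5 and 0.903 in the lower group of G and C content, so it has no direction. With peaks of −log10 q of at least 5, members with a peak came to 14, 12, 16 and 13 in the H3K27me3 NC, ΔLINC00641, ΔSETD5-AS1 and H3K9me3 ΔLINC00662 lists, and the NC share under H3K27me3 to 0.187% for type II keratins, 0.0824% for type I keratins, 6.42% for chromosome 17 KRTAP genes and 0 inside TSPEAR. Under H3K9me3 the shares became 0.986% for type I keratins, 0.972% for chromosome 21 KRTAP genes outside TSPEAR and 7.86% inside it. The 2 KRTAP clusters with the highest shares thus kept that place. At this threshold the covered ratios were 0.465 for ΔLINC00641 and 0.364 for ΔLINC00662, NC peaks retained were 36.8% for ΔSETD5-AS1 and 30.3% for ΔLINC00662, and the median log2 ratios of fold enrichment 0.11 for ΔLINC00641 and −0.01 for ΔSETD5-AS1. NC peaks of that strength set against the whole ΔLINC00641 list were retained to 78.9%. With gene spans alone, members with a peak numbered 23 in ΔLINC00641 (H3K27me3), 9 in NC and 9 in ΔLINC00662 cells (H3K9me3), chromosome 17 KRTAP genes had 19.4% under NC H3K27me3, and H3K9me3 covered 0 of type I keratins and 6.14% of chromosome 21 KRTAP genes outside TSPEAR. Asking for 50% of an NC peak gave 35.0% retained for ΔLINC00641 and 33.9% for ΔLINC00662. In the upper group of G and C content 35.7% (ΔLINC00641) and 44.8% (ΔSETD5-AS1) were retained, and 29.7% (ΔLINC00662) in the lower group, with covered ratios for ΔLINC00662 of 0.986 and 0.341. Without repeated words, the H3K9me3 share of type II keratins was 0.226%. Summits of about 20 fragments limit what a single peak can show.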
